A study of Mus musculus with 2 samples.

Results

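T cell receptor gene segments were examined in 2 single-cell RNA libraries of mouse colon, one from a Runx3 knockout (labelled KO) and one from the wild type (labelled WT). Members were all features whose symbol names a variable (V) or constant (C) gene of the alpha, beta, gamma or delta receptor locus, 186 of the 55357 features in the files. They comprised 130 alpha V genes (Trav), 35 beta V genes (Trbv), 7 gamma V genes (Trgv), 6 delta V genes (Trdv) and 8 constant genes (Trac, Trbc1, Trbc2, Trdc and Trgc1 to Trgc4). All 186 matched GENCODE M21 (GRCm38) by gene ID, where the beta locus lies on chromosome 6, the gamma locus on chromosome 13, and the alpha and delta genes on chromosome 14. In that annotation 34 of the V genes are pseudogenes.

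The study's design text speaks of a tumour model in Runx3-deficient mice. The labels give neither the kind of knockout allele nor the strain, age, sex or number of animals. With 1 library per genotype there was no replicate check. Intervals below are exact 95% Poisson or Clopper-Pearson intervals, which cover counting error only, and no difference between the libraries could be tested over animals. Cells of 1 clone share their segments, so they are not independent draws of a repertoire.

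A T cell receptor chain is made from a V segment, a joining segment and, in beta and delta chains, a diversity segment, which are joined in the DNA of a developing lymphocyte and spliced to a constant region. Alpha-beta T cells pair an alpha with a beta chain, recognise peptides on MHC molecules and make up the CD8, CD4 and regulatory lineages. Gamma delta T cells use the other pair of loci and are common at barrier surfaces such as the gut. NK cells do not assemble a functional receptor from these loci, although transcripts from unrearranged or partly rearranged loci have long been known in lymphocytes.

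The library labelled KO held 6573 barcodes and 62465176 UMIs (unique molecular identifiers, 1 per captured RNA molecule), and the library labelled WT held 8800 barcodes and 85367638 UMIs. After the filters 5290 KO cells (median 9486 UMIs) and 8418 WT cells (median 8316.5 UMIs) remained, of which 60.2% and 60.6% met the macrophage gate. Runx3 itself was still counted, at 192 CPM (counts per 1e6 UMIs) in all kept KO cells against 256 in all kept WT cells. Which part of the gene was deleted is not given, so this level does not check the genotype. No cell of either library carried UMIs of 3 or more of the 5 epithelial markers Epcam, Krt8, Krt18, Krt19 and Cdh1. Of the kept KO cells, 2883 were female-type (Xist and no Y-linked gene), 1264 were male-type (a Y-linked gene and no Xist) and 457 held both. Of the kept WT cells, 6698 were male-type, 1 was female-type and 2 held both. The libraries shared 17 barcodes.

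T cells were barcodes with at least 2 UMIs of Cd3d, Cd3e and Cd3g, 751 labelled KO and 1719 labelled WT. CD8 T cells (Cd8a or Cd8b1, without Cd4 or Foxp3) numbered 265 labelled KO and 971 labelled WT. Conventional CD4 T cells (Cd4, without Foxp3, Cd8a or Cd8b1) numbered 122 and 135, and regulatory T cells (Treg; Foxp3, without Cd8a or Cd8b1) numbered 155 and 201. Gamma delta T cells (at least 2 Trdc UMIs and more Trdc than Trac), set apart before the other T cell classes were formed, numbered 26 and 81. NK cells (no CD3 UMI, and at least 3 UMIs of at least 2 of Ncr1, Klrb1c, Klre1, Klra8 and Klra4) numbered 91 and 255. Many of these barcodes also held macrophage RNA. At least 5 UMIs of Lyz2, C1qa, C1qb and C1qc were present in 48.9% of KO and 46.0% of WT T cells, and in 31.9% of KO and 28.6% of WT NK cells. Its part in the results was not tested, apart from the values without those barcodes given in the closing section.

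The sequences show how far the counts can tell 1 member from another. Trbc1 (chr6:41538218-41539881, plus strand) and Trbc2 (chr6:41546730-41548352, plus strand) encode alternative beta constant regions. Their first coding exons differed at 1 of 375 bases, shown in capitals in the last 120 bases of that exon, as given by the GENCODE M21 transcripts.
Trbc1: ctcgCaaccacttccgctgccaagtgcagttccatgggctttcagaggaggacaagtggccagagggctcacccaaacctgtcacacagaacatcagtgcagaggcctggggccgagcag
Trbc2: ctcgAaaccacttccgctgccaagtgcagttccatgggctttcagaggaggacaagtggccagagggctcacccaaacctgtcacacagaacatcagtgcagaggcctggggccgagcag
The 3′ ends of these transcripts were distinct: all windows of 90 bases in their last 300 bases were found in no other member. Over the whole transcript this held for 68.7% of windows in Trbc1 and 66.3% in Trbc2. The labels describe capture with a barcode at the 3′ end and random-primed second strands, which places most reads towards the 3′ end.

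The alpha V genes were the least separable. Of the 130, 62 had fewer than 50% of their 90-base windows to themselves and 40 had none, whereas all 35 beta V genes were unique in every window. The Trav16 subgroup is shown because it was the most called alpha V subgroup of CD8 T cells in both libraries. It has 3 copies: Trav16 (chr14:53743104-53743705, plus strand), Trav16d-dv11 (chr14:53047287-53047821, plus strand) and Trav16n (chr14:53351028-53351621, plus strand). Their last 60 bases follow, with the differing bases in capitals.
Trav16: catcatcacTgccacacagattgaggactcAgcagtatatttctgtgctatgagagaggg
Trav16d-dv11: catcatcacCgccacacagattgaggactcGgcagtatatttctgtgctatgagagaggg
Trav16n: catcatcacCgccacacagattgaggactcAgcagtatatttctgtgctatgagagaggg
Over their last 290 bases the copies differed from each other at 3 to 5 positions, so calls between them are uncertain and they are also given as 1 subgroup. Trav11 and Trav11d were identical over 290 bases, and Trav13d-2 and Trav13n-2 likewise.

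The gamma and delta V segments that carried counts in CD8, gamma delta and NK cells are shown by their last 60 bases, with the codon of the conserved cysteine that opens the third complementarity-determining region in capitals. Trgv2 (chr13:19336573-19337167, minus strand) and Trgv1 (chr13:19339989-19340454, plus strand) lie close together and are nearly alike in this stretch. Trgv6 lies at chr13:19190356-19190929 (plus strand), Trdv4 at chr14:54074905-54075515 (plus strand) and Trdv2-2 at chr14:53960944-53961602 (plus strand).
Trgv2: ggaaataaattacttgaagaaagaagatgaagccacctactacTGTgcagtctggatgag
Trgv1: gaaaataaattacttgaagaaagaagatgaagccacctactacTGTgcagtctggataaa
Trgv6: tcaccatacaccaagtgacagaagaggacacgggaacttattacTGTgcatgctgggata
Trdv4: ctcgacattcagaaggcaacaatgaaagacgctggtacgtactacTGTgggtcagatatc
Trdv2-2: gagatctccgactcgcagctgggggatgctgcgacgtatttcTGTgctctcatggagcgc
Trgc1, Trgc2 and Trgc3 agreed at 96.1% to 97.3% of 330 first-exon bases, and Trgc4 at 81.2% to 82.1% with any of them. Trgv1, Trgv2 and Trgv6 were unique in 94.7%, 100% and 100% of 90-base windows, and Trdv4 in 100% against 57.1% for Trdv2-2, which resembles Trdv2-1.

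Constant genes supplied nearly all member UMIs: 9635 of 9888 in KO T cells and 20870 of 21366 in WT T cells. Of all member UMIs in kept cells, 88.2% (KO) and 88.3% (WT) lay in T cells. V segments were sparse. Of the 186 members, 101 had a UMI in a T cell of either library, 85 had none, and 14 reached 20 UMIs in T cells over both libraries. In CD8 T cells there were 1.01 Trbv UMIs per 100 Trbc UMIs labelled KO and 0.546 labelled WT, and 4.82 (KO) and 4.62 (WT) Trav UMIs per 100 Trac UMIs. A Trbv segment was seen in 12.8% of KO and 5.36% of WT CD8 T cells, and a Trav segment in 14.3% and 9.99%, at medians of 8816 and 6054 UMIs per cell. After each cell was thinned to 1000 UMIs the shares were 0.760% (KO) and 0.724% (WT) for Trbv, and 2.66% (KO) and 2.59% (WT) for Trav. These thinned shares rest on few cells, and the part of depth in the unthinned differences was not tested. Segment usage below therefore describes a minority of cells, most of them by a single UMI.

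Alpha and beta constant transcripts stood at close levels in both libraries. CD8 T cells had 1447 CPM of Trac, Trbc1 and Trbc2 together labelled KO and 1510 labelled WT, a ratio of 0.959 (0.926 to 0.992). Trac, the only alpha constant gene, was at 313 CPM (293 to 333) in KO CD8 T cells and 307 (295 to 319) in WT. Trbc1 was at 572 (546 to 600) in KO and 544 (529 to 560) in WT. Trbc2 was at 563 (536 to 590) in KO and 659 (642 to 676) in WT, a ratio of 0.854 (0.809 to 0.902). The intervals of the libraries overlapped for Trac and Trbc1 and did not for Trbc2.

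The sign of these small differences depended on which KO cells were counted. Male-type KO CD8 T cells (71) had 2062 CPM of alpha and beta constant transcripts, female-type KO cells (128) had 1540 and male-type WT cells (831) had 1452. The 54 KO CD8 T cells with both Xist and a Y-linked gene had no counterpart among WT CD8 T cells. Without cells of that kind the log2 ratio KO over WT (with 5 CPM added to both) was 0.20, against -0.06 with them, and among male-type cells it was 0.50. What such barcodes contribute was not tested further.

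Conventional CD4 T cells had 1159 CPM of alpha and beta constant transcripts labelled KO and 1133 labelled WT (ratio 1.02, 0.949 to 1.10). In Treg the sum was 830 labelled KO and 821 labelled WT (ratio 1.01, 0.940 to 1.09). Treg Trac stood at 334 CPM (KO) and 380 (WT), Trbc1 at 193 (KO) and 165 (WT), and Trbc2 at 303 (KO) and 276 (WT). None of these reached a 2-fold difference. At least a 2-fold difference in either direction was found in 0 of the 5 members that could be compared in CD8 T cells (background 0.542% of 10148 genes), 0 of 3 in CD4 T cells (1.32% of 6454) and 0 of 3 in Treg (0.806% of 7690). Over all T cells it was 0 of 8 (0.493% of 10151).

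The balance of beta to alpha transcripts differed between lineages in both libraries. Beta constant UMIs per alpha constant UMI numbered 3.63 (3.38 to 3.90) in KO and 3.92 (3.75 to 4.09) in WT CD8 T cells. The value was 2.49 (2.21 to 2.80) in KO and 2.65 (2.35 to 2.99) in WT CD4 T cells, and 1.49 (1.33 to 1.66) in KO and 1.16 (1.05 to 1.28) in WT Treg. The order CD8, CD4, Treg was the same in both libraries, with intervals that did not overlap between lineages of 1 library. Both beta genes were lower in Treg than in CD8 T cells of the same library, whereas Trac was not. Gamma delta T cells, which were gated partly on low Trac, held 113 Trbc against 8 Trac UMIs in KO and 404 against 37 in WT.

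Trbc1 and Trbc2 were counted together in most T cells. Among CD8 T cells with at least 5 beta constant UMIs, 74.7% of 225 labelled KO and 70.3% of 745 labelled WT held both, each at over 10% of the cell's beta constant UMIs. At the ends, 20.4% (KO) and 23.9% (WT) were at or under 10% Trbc1, and 4.89% (KO) and 5.77% (WT) were at or above 90%. CD4 T cells had 30.3% (KO) and 29.0% (WT) at the Trbc2 end, and Treg had 29.9% (KO) and 22.5% (WT). Trbc1 made up 50.4% of beta constant UMIs in KO and 45.2% in WT CD8 T cells. The share was 60.2% in male-type KO, 46.6% in female-type KO and 44.6% in male-type WT CD8 T cells. Counted over UMIs, the intervals of male-type KO (57.2 to 63.1) and female-type KO cells (44.1 to 49.2) did not overlap. By cell, those at the Trbc2 end made up 14.5% (6.86 to 25.8) of male-type KO and 22.2% (14.8 to 31.2) of female-type KO cells, with overlapping intervals. In CD4 T cells it was 38.0% (KO) and 38.4% (WT), and in Treg 38.9% (KO) and 37.5% (WT). Among Treg the KO types had the other order over UMIs. The share was 25.2% (18.3 to 33.1) in male-type KO, 46.1% (40.7 to 51.5) in female-type KO and 38.8% (35.2 to 42.4) in male-type WT cells. By cell, the Trbc2 end held 28.6% (8.39 to 58.1) of 14 male-type KO and 25.9% (11.1 to 46.3) of 27 female-type KO Treg. UMIs of 1 cell are not independent, so the intervals over UMIs are too narrow to set the KO types apart.

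**Figure D1:**
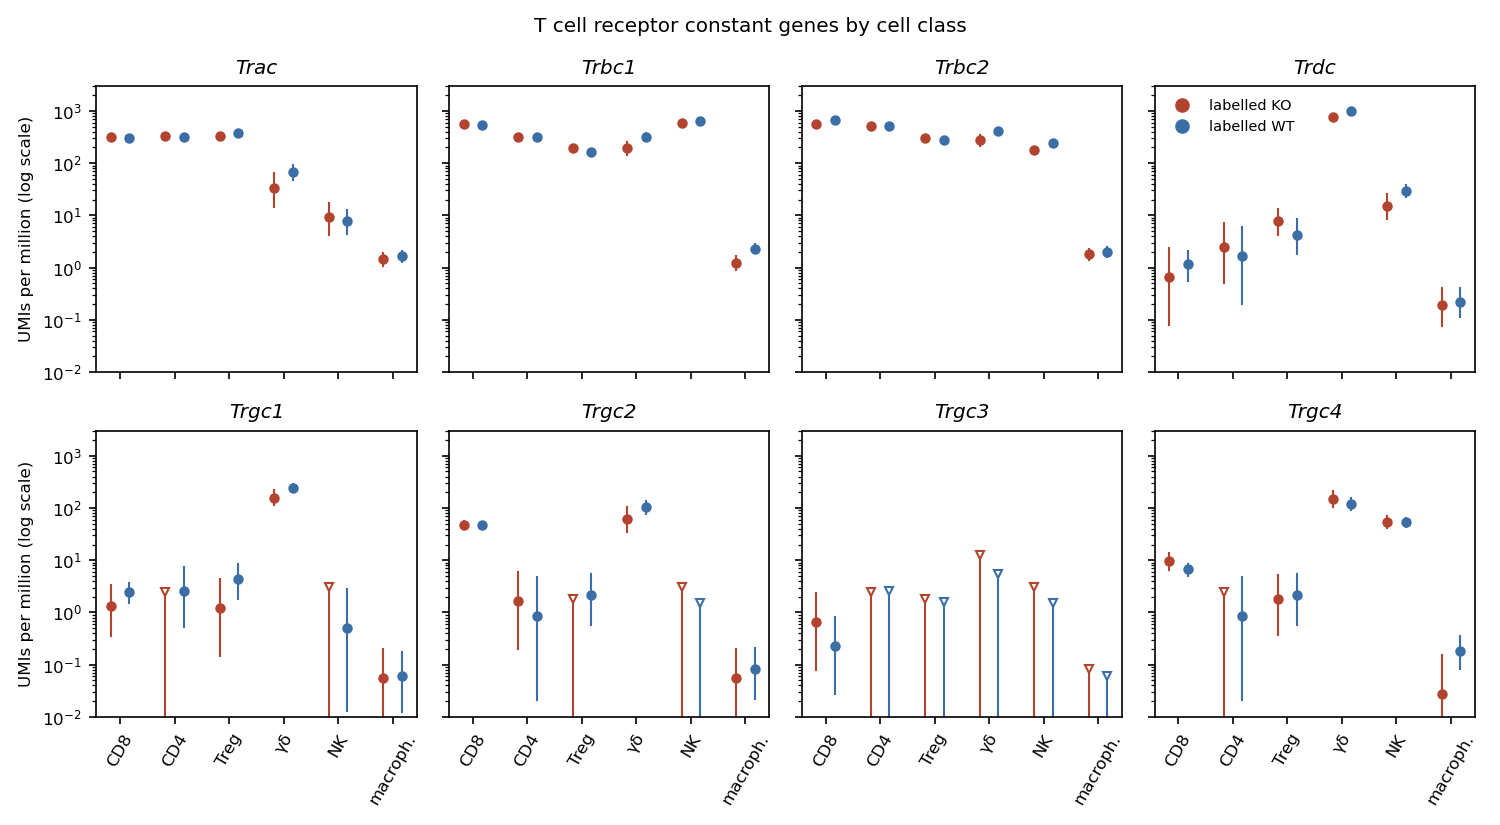
Level of each constant gene (CPM, log scale) in CD8 T, CD4 T, regulatory T, gamma delta T (γδ), NK and macrophage-gated cells, labelled KO left of labelled WT. Points are class sums with exact 95% Poisson intervals, and open triangles mark the limit of 3 counts where none was seen. Trbc1 in NK cells lay at 592 (KO) and 628 (WT), beside 572 and 544 in CD8 T cells, whereas Trac in NK cells lay at 9.18 and 7.71.

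Beta variable segments were called as the segment with the most UMIs in a cell. In CD8 T cells 34 KO and 52 WT cells had a call, spread over 12 and 16 segments. Trbv2 led in KO CD8 T cells, with 7 of 34 calls (20.6%, 8.70 to 37.9), against 3 of 52 in WT (5.77%, 1.21 to 15.9). Trbv12-2 led in WT, with 15 of 52 (28.8%, 17.1 to 43.1), against 6 of 34 in KO (17.6%, 6.76 to 34.5). Trbv16 had 2 calls in KO (5.88%) and 8 in WT (15.4%). The intervals overlapped for each of these 3 segments, the only ones with 10 or more calls over both libraries.

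Less used beta segments appeared in few cells each. Trbv19 had 3 KO and 0 WT calls, and Trbv17 had 0 KO and 4 WT calls. No call among 34 KO or 52 WT cells allows a share of up to 8.82% or 5.77% (3 calls). By the exact interval it allows up to 10.3% or 6.85%. Trbv13-1, Trbv13-2 and Trbv14 had 3 calls each in KO, and 1, 2 and 2 in WT. Trbv1 and Trbv29 were not called in more than 1 CD8 T cell of either library. The chance that 2 called cells use different segments, a measure of evenness, was 90.9% in KO and 88.4% in WT CD8 T cells. The Shannon measure, a separate index, gave about 9.97 (KO) and 11.0 (WT) equally used segments. The 2 measures thus ranked the libraries in opposite order, and the Shannon value was not adjusted for the number of calls (34 KO, 52 WT).

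Alpha segments of CD8 T cells were called in 37 KO and 96 WT cells. The Trav16 subgroup held 7 of 37 calls labelled KO (18.9%, 7.96 to 35.2) and 40 of 96 labelled WT (41.7%, 31.7 to 52.2), and the intervals overlapped. Single copies followed the same order, with 4 KO and 19 WT calls for Trav16n, 3 and 10 for Trav16, and 0 and 11 for Trav16d-dv11. Within the KO library the subgroup had 3 of 9 calls in male-type and 3 of 21 in female-type CD8 T cells, beside 35 of 85 in male-type WT cells. In Treg it had 2 of 17 calls in KO and 4 of 27 in WT, and in CD4 T cells 2 of 15 and 1 of 18.

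Trav13-2, unique in all its 90-base windows, had 0 of 37 calls in KO and 13 of 96 in WT CD8 T cells (13.5%, 7.41 to 22.0). The 0 in KO allows up to 8.11% (3 calls), or 9.49% by the exact interval, which overlaps that of WT. Of the 13 WT cells, 11 held more Trbc1 than Trbc2 and 2 the reverse, compared with 19 and 18 of the 40 WT cells with a Trav16 subgroup segment. Trav6-7-dv9 had 3 KO (8.11%) and 7 WT calls (7.29%), and Trav13-1 had 4 KO and 2 WT calls. At subgroup level, 2 called CD8 T cells differed with a chance of 91.7% in KO and 78.1% in WT. At segment level it was 96.2% and 91.6%, since the Trav16 copies then count as different segments.

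**Figure D2:**
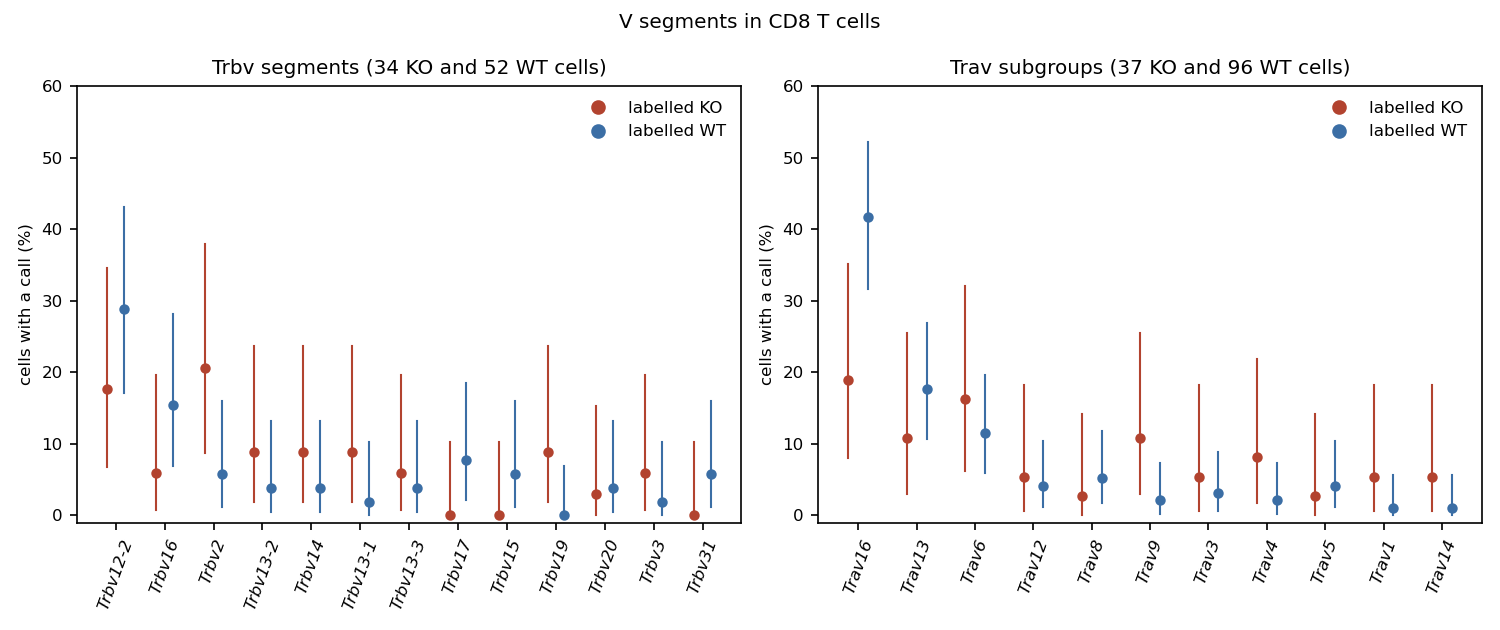
Share of CD8 T cells with a call (%) for each Trbv segment and each Trav subgroup with 3 or more calls over both libraries, labelled KO left of labelled WT, with exact 95% Clopper-Pearson intervals. The Trav16 subgroup stands at 18.9% in KO and 41.7% in WT cells, and the intervals of the 2 libraries overlap at every beta segment shown.

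Both an alpha and a beta call were available in 7 KO and 11 WT CD8 T cells. Of the 7 KO cells, 2 shared the pair Trav6n-6 with Trbv19, and the other 5 had a pair each. Of the 11 WT cells, 3 shared Trav13-2 with Trbv12-2 and 3 shared Trav6-7-dv9 with Trbv17, leaving 5 with pairs of their own. No pair was repeated in the 2 KO CD4 T cells, the 2 KO Treg or the 3 WT Treg that had one.

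Calls in the CD4 lineages were too few for a profile. Conventional CD4 T cells had 10 KO and 4 WT beta calls, led by Trbv1 and Trbv12-2 with 3 each in KO, and by Trbv3 with 2 in WT. Treg had 12 KO and 9 WT beta calls, and Trbv3 led in both, with 3 of 12 in KO (interval 5.49 to 57.2%) and 3 of 9 in WT (7.49 to 70.1%). Their alpha calls, 15 KO and 18 WT in CD4 T cells and 17 KO and 27 WT in Treg, were spread over 12 and 16, and over 14 and 21, segments. Trav3-3 had 3 KO and 0 WT calls in CD4 T cells, and 2 KO and 3 WT calls in Treg.

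Segments tied to unconventional T cells could be read only in part. Trav11, the alpha V segment of mouse invariant NKT cells, and its copy Trav11d had 0.394% and 0% of their 90-base windows to themselves, so the absence of UMIs for both says nothing on such cells. The annotated pseudogene Trav11n, which matched them at 97.9% of 290 bases, had 0 KO UMIs and 2 UMIs in 2 WT T cells. Trav1, used by mouse mucosal-associated invariant T cells, had 3 UMIs in KO and 2 in WT T cells. Annotated pseudogenes gave 1 UMI in KO and 23 in WT T cells, of which Trav9n-1 had 10 in 6 WT cells and Trav8-2 had 8 in 4 WT cells, with 0 KO UMIs for either.

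Gamma constant transcripts also marked CD8 T cells. Trgc2 stood at 48.2 CPM (40.7 to 56.6) in KO and 46.8 (42.4 to 51.6) in WT CD8 T cells, and was found in 26.0% and 23.9% of the cells. It was at 1.65 (KO) and 0.842 (WT) in CD4 T cells, at 0 (KO) and 2.14 (WT) in Treg, and at 0 in NK cells of both libraries. Macrophage-gated cells, which should lack it, had a UMI in 0.0628% (KO) and 0.0784% (WT), at medians of 10588 and 9057 UMIs, against 8816 and 6054 in CD8 T cells. After thinning each cell to 1000 UMIs, which left out 2 KO and 4 WT CD8 T cells, the shares were 5.70% (KO) and 5.27% (WT) in CD8 T cells and 0.0317% and 0.0393% in macrophages.

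The variable segment beside it was almost always Trgv2. It was the call in 30 of 31 KO and 65 of 67 WT CD8 T cells with a gamma V UMI, and 24 of those 30 KO and 42 of those 65 WT cells also held Trgc2. Trgc2 was found in 34.4% of female-type KO, 16.9% of male-type KO and 24.9% of male-type WT CD8 T cells. Trdc was at 0.656 CPM in KO and 1.15 in WT CD8 T cells, a level limited by the gate, since cells with more Trdc were placed among gamma delta T cells first. Trgc4 was found at 9.84 in KO and 6.69 in WT CD8 T cells, and Trgc1 at 1.31 and 2.42.

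**Figure D3:**
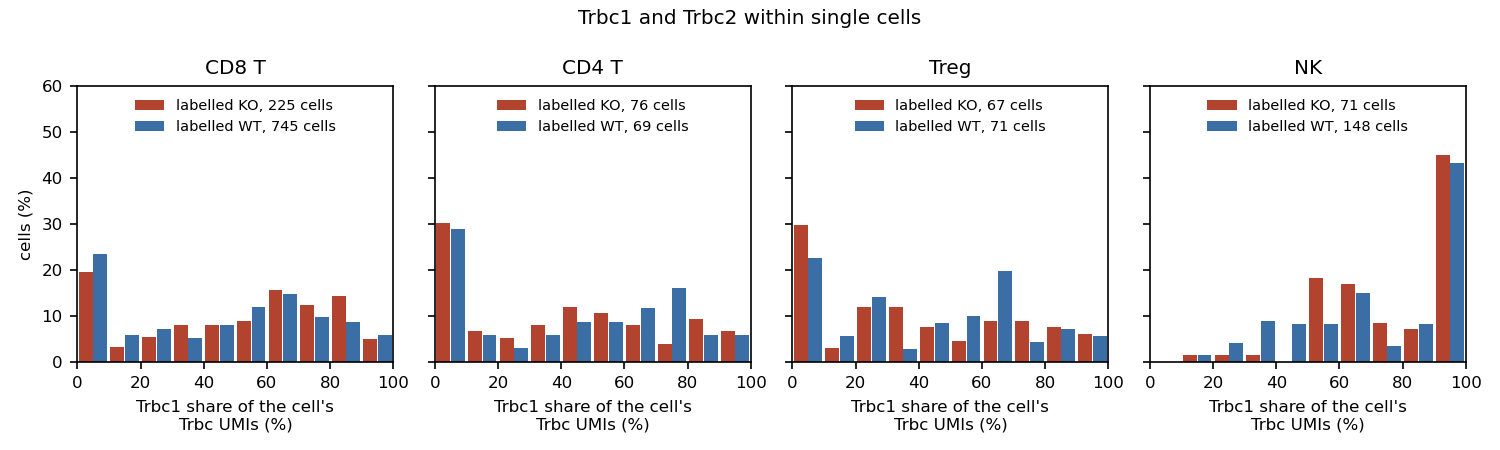
Share of each cell's beta constant UMIs that came from Trbc1 (10 bins), in CD8 T, CD4 T, regulatory T and NK cells with at least 5 such UMIs, labelled KO left of labelled WT in each bin. NK cells are absent from the lowest bin and gather in the highest, whereas the T cell classes have 19.6% (KO CD8) to 30.3% (KO CD4) of their cells in the lowest bin.

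Gamma delta T cells, gated on Trdc, held 752 CPM of Trdc labelled KO (646 to 870) and 1013 labelled WT (931 to 1102). Trgc1 was at 158 (KO) and 239 (WT), Trgc2 at 62.3 (KO) and 103 (WT), Trgc4 at 150 (KO) and 119 (WT), and Trgc3 at 0 in both. RNA of other cell types differed between these small groups, and its part in the result was not tested. The 4 neutrophil markers summed to 640 CPM in KO and 11.0 in WT cells, with S100a8, S100a9 and Retnlg at 0 in WT, and the 5 mesenchymal markers to 8.31 CPM in KO and 791 in WT cells, with all but Col3a1 at 0 in KO. Of the 6 members that could be compared, 0 differed by 2-fold or more (background 6.38% of 3086 genes). The alpha and beta genes in these cells were at 503 (KO) and 810 (WT) CPM together, mostly Trbc1 and Trbc2. With a gate that did not use Trdc (65 KO and 88 WT cells) the log2 ratio of Trdc was -1.36 and that of Trgc2 -1.68.

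Trdv4 was the delta segment of all 4 KO and 20 of 23 WT gamma delta cells with a call, and Trdv2-2 of the other 3 WT cells. Trdv1 and Trdv5 were called in none of them. Among gamma segments Trgv2 had 3 of 7 KO and 11 of 17 WT calls. Trgv6, which with Trdv4 forms the receptor of a mouse IL-17-producing gamma delta subset, had 2 of 7 KO calls (28.6%, 3.67 to 71.0) and 5 of 17 WT calls (29.4%, 10.3 to 56.0). Of the cells with a Trgv6 UMI, 2 of 2 labelled KO and 2 of 6 labelled WT also held Trdv4. Over all gamma delta T cells Trdv4 was seen in 15.4% (KO) and 24.7% (WT), and these counts are too few to show pairing. Trgv4, typical of another IL-17-producing subset, and the skin-associated Trgv5 were seen in 2 and 0 KO and 4 and 1 WT T cells of any class, and Trgv7, the segment of gut intraepithelial cells, in 1 KO and 0 WT T cells.

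NK cells carried beta constant transcripts near the level of CD4 T cells and almost nothing else of an alpha-beta receptor. Trbc1 was at 592 CPM (545 to 642) in KO and 628 (594 to 665) in WT NK cells, and Trbc2 at 178 (153 to 207) and 240 (218 to 262). Their sum was 771 in KO and 868 in WT, a ratio of 0.888 (0.814 to 0.968). Among male-type cells the log2 ratio was 0.33, against -0.17 in all cells, with 21 KO and 216 WT NK cells. Trac stood at 9.18 in KO and 7.71 in WT NK cells. No Trbv UMI was seen in 91 KO or 255 WT NK cells, where 756 and 1688 Trbc UMIs were, and there were 0 KO and 1 WT Trav UMIs. In CD8 T cells, 3461 KO and 10434 WT Trbc UMIs came with 35 and 57 Trbv UMIs.

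After thinning to 1000 UMIs per cell, 58.2% of KO NK cells (47.4 to 68.5, n = 91) and 58.3% of WT NK cells (51.9 to 64.4, n = 254) still held a beta constant UMI, against 0.443% and 0.669% of macrophage-gated cells. In CD8 T cells the same shares were 66.2% and 69.9%. Without thinning, 96.7% of KO and 94.5% of WT NK cells held one. No CD3 UMI was allowed in the gate, so T cells could enter it only where CD3 RNA was missed.

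The beta constant transcripts of NK cells were skewed to Trbc1, which made up 76.9% (73.7 to 79.8) in KO and 72.4% (70.2 to 74.5) in WT, above the 37.5% to 50.4% of CD8, CD4 and regulatory T cells. None of 71 KO and none of 148 WT NK cells with at least 5 such UMIs was at the Trbc2 end, and 45.1% (KO) and 43.2% (WT) were at the Trbc1 end. Of the NK cells with a Trbc2 UMI, 43 of 44 KO and 108 of 112 WT also held Trbc1. These shares were close to those over all NK cells, of which 95.6% (KO) and 92.9% (WT) held Trbc1. In female-type and male-type KO NK cells the Trbc1 share was 81.3% and 69.8%, and in male-type WT cells 72.6%.

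NK cells also held delta and gamma transcripts. Trdc was at 15.3 CPM (8.56 to 25.2) in KO and 29.8 (22.7 to 38.6) in WT NK cells, and Trgc4 at 55.1 (41.4 to 71.8) and 53.5 (43.7 to 64.8). By type, Trgc4 was at 102 CPM (60.2 to 161) in the 21 male-type KO, 56.4 (38.6 to 79.7) in the 55 female-type KO and 58.9 (48.0 to 71.6) in the 216 male-type WT NK cells. Trgc1, Trgc2 and Trgc3 together gave 0 KO and 1 WT UMIs, so that Trgc4 supplied 54 of 54 KO and 104 of 105 WT gamma constant UMIs of NK cells, compared with 30 of 183 KO and 58 of 487 WT in CD8 T cells. Trgv1 had 1 KO and 4 WT UMIs. Of the 4 members that could be compared in NK cells, 0 differed by 2-fold or more (background 1.35% of 6959 genes).

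Delta V UMIs of NK cells were set against those of the constant gene. Trdv4 had 10 KO and 17 WT UMIs, Trdv2-2 had 10 and 14, and all other delta V segments 0, beside 15 KO and 58 WT Trdc UMIs. This made 133 (KO) and 53.4 (WT) delta V UMIs per 100 Trdc UMIs in NK cells, against 4.42 and 7.43 in gamma delta T cells. That class was gated on Trdc, which raises its Trdc count. The ratio was 50 (KO) and 40 (WT) in CD8 T cells, 7.69 and 12.5 in Treg, and 0 in CD4 T cells. T cells outside these classes and without Cd4 had 66.7 and 75, and macrophage-gated cells 42.9 and 9.09. These further ratios rest on at most 13 Trdc UMIs each, and a high ratio cannot be called particular to NK cells. A Trdv4 UMI was found in 11.0% of KO (5.40 to 19.3) and 6.67% of WT (3.93 to 10.5) NK cells, and in 0.0628% of KO and 0 of 5101 WT macrophage-gated cells, which allows up to 0.0588%. By type, Trdv4 was found in 23.8% (8.22 to 47.2) of male-type KO, 5.45% (1.14 to 15.1) of female-type KO and 6.94% (3.94 to 11.2) of male-type WT NK cells. Among NK cells with Trdv4, Trdc was also seen in 0 of 10 KO and 2 of 17 WT cells. Among those with Trdv2-2, Trdc was seen in 2 of 10 KO and 3 of 13 WT cells. Over all NK cells Trdc was seen in 12.1% (KO) and 16.5% (WT). With so few cells, these counts do not show whether V and constant transcripts share NK cells more or less often than that. Cell by cell, delta V segments in gamma delta T cells reached 3 UMIs (KO) and 5 UMIs (WT), and in NK cells 2 in both libraries.

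**Figure D4:**
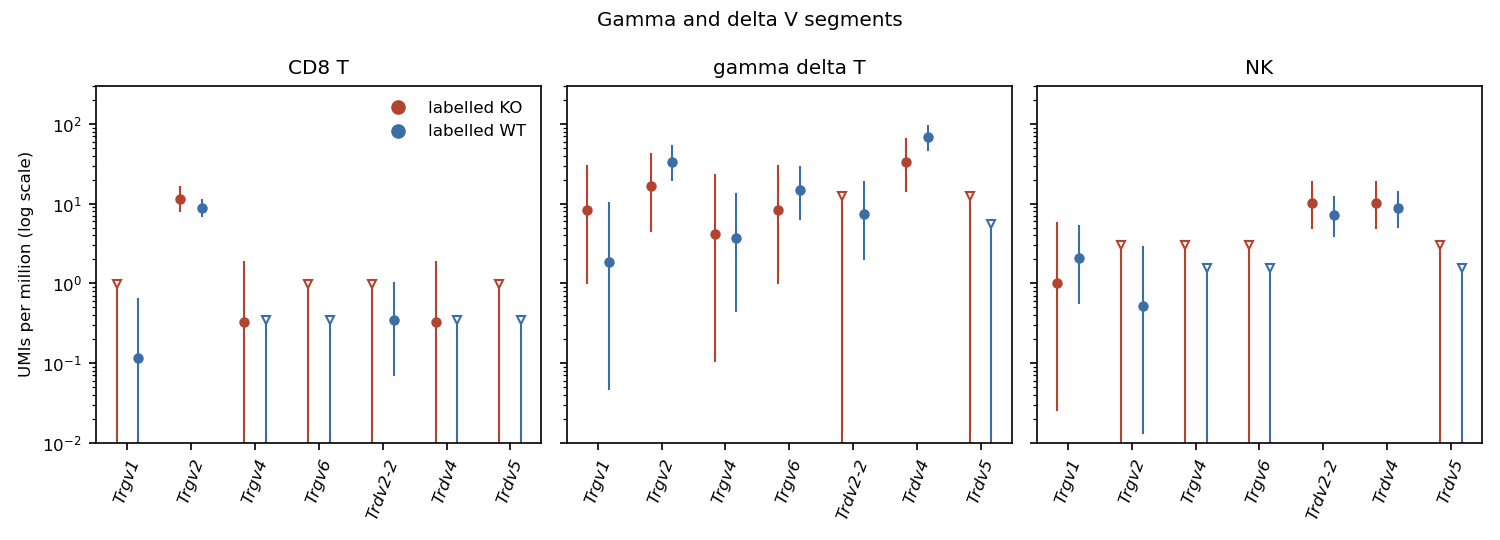
Level of gamma and delta V segments (CPM, log scale) in CD8 T, gamma delta T and NK cells, labelled KO left of labelled WT, with exact 95% Poisson intervals and open triangles at the limit of 3 counts where none was seen. CD8 T cells hold Trgv2, gamma delta T cells hold Trdv4 with Trgv2 and Trgv6, and NK cells hold Trdv2-2 and Trdv4 in both libraries.

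Other genes of the receptor pathway were compared by the same fold. Of 34 listed genes (CD3 and signal chains, coreceptors, proximal signalling, rearrangement and lineage factors), 25 could be compared in CD8 T cells. Of these, 0 differed by 2-fold or more, beside a background of 0.542%. In KO 7 were higher and 18 lower, with a median log2 ratio of -0.11 against -0.04 over all genes. How many of all genes were higher or lower in KO was not counted for any class. In CD4 T cells 16 of 25 were higher and 9 lower in KO (median 0.03, against -0.04 over all genes). In Treg 6 of 24 were higher and 18 lower (median -0.04, against -0.04 over all genes). Both had 0 at 2-fold, beside backgrounds of 1.32% (CD4) and 0.806% (Treg). In gamma delta T cells 4 of 22 were higher and 18 lower (median -0.30, against -0.06 over all genes). Of the 22, 1 was past 2-fold, beside a background of 6.38% of 3086 genes. This was Gata3, a T lineage transcription factor, at 29.1 CPM in KO and 80.8 in WT (log2 ratio -1.33). It rests on 7 KO and 44 WT UMIs. In NK cells 16 could be compared, again with 0 at 2-fold, beside a background of 1.35%. Of the 16, 2 were higher and 14 lower in KO, and their median was -0.30 against -0.01 over all genes. Cd247, the zeta chain that NK cells also use, was at 77.5 CPM in KO and 98.2 in WT NK cells, and Fcer1g, their other signal chain, at 1771 and 1764. Cd3d, Cd3e and Cd3g were 0 there by the gate. Rag1, Rag2 and Dntt, which rearrange and extend the segments in precursors, had no UMI in NK cells of either library.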

How the data were processed

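Per the labels, cells were captured in microwells with barcoded beads on the SeekOne MM chip. The deposited matrices hold UMI counts per gene and barcode, made by the authors with Cell Ranger 8.0.1 per the file headers. The genome build mm10 and Seurat 3 are named in the submitters' processing notes. No source used here says whether intronic reads were counted.

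Barcodes with at least 500 UMIs, 200 genes and at most 25% mitochondrial UMIs were kept, and those above the 95th percentile of Scrublet scores (scanpy 1.11.5) were left out (223 KO, 382 WT), since the automatic threshold marked only 2 and 0. Counts were summed per class and library and given as CPM. Genes compared had at least 50 UMIs over both libraries and were found in 5% of cells of either. No test over samples was possible with 1 library per group. Ratios carry exact conditional intervals, and the code was tested on simulated counts.

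All constant genes, the 5 most called segments per locus, class and library, the 3 highest and 3 lowest differences among Trbv or Trav segments with 10 calls, and a preset list were eligible to be named, with the repeated pairs and pseudogenes chosen after their values were seen. Members, lists and gates were chosen with earlier results of these data known.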

Additional observations from a re-analysis of the deposited data

How the results depend on the processing

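Counting sets the limits here: a CD8 T cell held at most 3 (KO) or 5 (WT) alpha V UMIs and 2 (KO) or 3 (WT) beta V UMIs, and 1 library per genotype leaves animal, sex and batch unseparated. No paired analysis was possible because each genotype has 1 library. Leaving out barcodes with 5 or more macrophage UMIs left no WT CD4 T cell with a beta V call, and calls with at least 2 UMIs gave none in CD4 T cells or Treg. Of 172 values for 13 main results, 156 stayed within the counting interval of the reported value, 12 lay outside it, and 4 reversed, that is, changed the sign of a log2 ratio whose reported interval excluded 0. Of 388 further values for 29 results, these were 338, 46 and 4. Ratios whose reported interval held 0 changed sign in 1 value of the main results (Treg, below) and in 21 values of 10 further results, among them CD8 Trgc2 (-0.44), Treg Trbc1 (-0.14) and gamma delta Trgc2 (0.95) in male-type cells, NK Trgc4 (-0.43) with 3 NK genes required, and gamma delta Trgc4 (-0.58) with a gate without Trdc. The sum of alpha and beta constants in CD8 T cells (log2 ratio -0.06 as reported) reversed to 0.50 in male-type cells, 0.20 without cells holding both Xist and a Y-linked gene, and 0.029 for female-type KO against all WT cells (chosen after seeing the data), and was -0.010 with the median gene ratio set to 1. In Treg it was 0.38 (male-type cells) and 0.16 (without the cells holding both), against 0.02 as reported. In NK cells the beta constant ratio reversed to 0.33 in male-type cells. Among male-type cells CD8 Trbc2 (0.041), Treg Trac (0.27), NK Trbc2 (0.46) and gamma delta Trdc (0.49) were also positive, against negative reported values. The cause was not tested. With at least 2 UMIs per call, the leading beta segment took 100% of 1 KO (Trbv14) and of 4 WT (Trbv12-2) CD8 T cells, and Trgv6 0% of 1 KO gamma delta cell; the last was also 0% of 1 in male-type cells. With 10% of doublet scores left out, 1 WT CD4 T cell (100%) had a beta call. The share of NK cells with a beta constant UMI was 78.0% (KO) and 79.8% (WT) at 2000 UMIs per cell, and 96.7% and 94.5% unthinned. Without barcodes holding macrophage RNA, the log2 ratios of the constant sums were -0.04 (CD8), -0.07 (Treg) and -0.17 (NK), the Trav16 share was 15.0% (KO) and 40.8% (WT), and the NK Trbc1 share 77.0% (KO) and 73.1% (WT).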

Other observations

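Joining (J) segments were outside the rule on symbols. No source used here says whether intronic reads were counted, and whether these UMIs belong to V-containing transcripts was not tested. In T cells, alpha J segments (Traj) had 374 UMIs in 32.4% of KO cells and 793 UMIs in 30.4% of WT cells, more than the 113 KO and 235 WT Trav UMIs. In NK cells no Traj UMI was seen in 91 KO or 255 WT cells, which allows a share of up to 3.30% and 1.18%. Beta J segments (Trbj) had 5 UMIs in 4 KO NK cells and 11 UMIs in 11 WT NK cells, although no Trbv UMI was present. Delta J segments (Trdj) had 5 UMIs in 5 KO and 11 UMIs in 10 WT NK cells. Macrophage-gated cells had no Trbj UMI in 3183 KO or 5101 WT cells, and 0 KO and 1 WT Trdj UMIs.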
